A study of Mus musculus with 18 samples.

Results

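The oestrogen and progesterone receptor circuit of the mouse mammary gland was followed through 8 genes, the receptor genes Esr1 and Pgr and the genes Foxa1, Gata3, Cited1, Greb1, Tbx3 and Tbx2, which encode pioneer factors, cofactors and T-box factors that work with these receptors. The members were picked by gene symbol, 8 of the 52489 annotated genes in the count files. Their measured levels were not the rule, but earlier results of these data were known when they were chosen. They were read in 18 RNA sequencing libraries of sorted epithelium, 6 from each of 3 populations. All cells came from nulliparous, untreated MMTV-Cre mice aged 12 weeks, so every group carries a Cre recombinase transgene under the mouse mammary tumour virus promoter, and the labels name no other allele. Basal cells were sorted as CD49f high and CD61 positive, alveolar progenitors (AP, also called luminal progenitors) as CD49f low and CD61 positive, and hormone-sensing luminal cells (HSL, also called mature luminal cells) as CD49f low and CD61 negative. The study had 6 animals, and the sample numbers 1 to 6 each occur once per population. The labels do not state that a number is 1 animal, so p-values measure the spread between these samples.

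Esr1 encodes oestrogen receptor alpha and Pgr the progesterone receptor, ligand-activated transcription factors that bind DNA in the nucleus. In the mammary gland oestrogen drives ductal growth and progesterone drives side branching and alveolar growth. Only a subset of luminal cells carries the receptors, and these cells pass the signal to their neighbours through secreted factors. FOXA1 opens chromatin at sites that the oestrogen receptor then occupies, and GATA3 is needed for luminal identity and binds many of the same sites. CITED1 is a transcriptional coactivator that enhances oestrogen receptor activity, and GREB1 is both a classic oestrogen-induced gene product and a receptor cofactor. TBX3 and TBX2 are T-box repressors with roles in early mammary development.

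Promoter sequence was taken from RefSeq on GRCm38.p6, for the 250 bases before each listed start site, and 6 of the 8 members had an entry (10 windows in all). The windows shown are those of the progesterone receptor gene and of the members whose outermost listed window held a receptor or forkhead match. Foxa1 had a single listed window, which lies inside the annotated span of the gene (57540628 to 57546916) and not before its outer end. They cover chr9:8899583-8899832 on the plus strand for Pgr, chr12:57546112-57546361 on the minus strand for Foxa1 and chr12:16800887-16801136 on the minus strand for Greb1. Sequences run 5′ to 3′ along the gene, with any motif match in capitals.

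Pgr: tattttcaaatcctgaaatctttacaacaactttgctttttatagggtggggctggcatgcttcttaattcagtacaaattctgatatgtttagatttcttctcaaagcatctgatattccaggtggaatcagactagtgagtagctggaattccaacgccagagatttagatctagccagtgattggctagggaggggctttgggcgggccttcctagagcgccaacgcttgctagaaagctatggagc

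Foxa1: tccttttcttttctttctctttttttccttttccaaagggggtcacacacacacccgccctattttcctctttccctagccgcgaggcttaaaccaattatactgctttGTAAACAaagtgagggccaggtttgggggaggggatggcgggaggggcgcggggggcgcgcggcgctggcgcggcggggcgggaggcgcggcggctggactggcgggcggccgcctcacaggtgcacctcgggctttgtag

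Greb1: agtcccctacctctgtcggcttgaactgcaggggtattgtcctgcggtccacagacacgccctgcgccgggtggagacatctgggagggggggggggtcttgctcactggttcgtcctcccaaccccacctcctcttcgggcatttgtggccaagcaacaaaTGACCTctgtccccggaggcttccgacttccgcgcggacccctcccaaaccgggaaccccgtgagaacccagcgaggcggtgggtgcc

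The Foxa1 capitals are a forkhead match (TGTTTAC on the opposite strand, printed as GTAAACA along the gene) at position -141 relative to the start site. Of 32851 mouse promoter windows 3.17% held that motif. In Greb1 the capitals are an oestrogen response half-site (AGGTCA on the opposite strand, printed as TGACCT along the gene) at -88. This half-site was also present in 1 Cited1 window, at -217, and it occurred in 14% of all windows. Pgr had no match to any motif searched. The full palindromes of the oestrogen receptor (GGTCA and TGACC, 3 bases apart, 0.0639% of windows) and of the progesterone receptor (GNACA and TGTNC, 3 bases apart, 0.387%), the GATA motif AGATAA (9.99%) and the T-box half-site AGGTGTGA (1.12%) had no match in the 10 windows. The half-site AGGTCA can lie within a longer response element, and all motifs were searched on both strands. A match is a run of letters in the window and was not tied to binding or to the levels below.

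Levels are given as CPM, the deposited gene counts relative to a library total scaled with TMM factors, and fold changes as log2 ± standard error from the quasi-likelihood test of edgeR. Adjusted p-values use the Benjamini-Hochberg method over 16471 genes, and a gene is called where its value is under 0.05. Total counts per library were 29898247 to 91092224 for basal, 37390477 to 62503032 for AP and 26515200 to 52403133 for HSL. Among sample numbers, 4189 genes (25.4%) differed with all 6 in the model and 1696 (10.3%) without sample 1. No other sample was left out of this test, so the drop cannot be laid to sample 1 in particular. The labels were checked against markers: 12 hormone-sensing markers outside the 8 genes summed to 9456 to 31610 CPM in HSL, 2494 to 11082 in AP and 522 to 2393 in basal libraries. Krt18 and Krt8 weigh heavily in these sums, with means of 8500 and 2376 CPM in HSL and 4681 and 1204 in AP. Taken singly, 9 of the 12 were called higher in HSL than in AP, 0 lower and 3 not. Ptgs1 had its highest mean in basal libraries (14.9 CPM, beside 3.74 in HSL). Basal markers summed to 29322 to 51281 CPM in basal libraries and to at most 480 CPM in any other, and alveolar progenitor markers to 3515 to 10894 in AP, 1087 to 3028 in basal and 212 to 763 in HSL libraries. Csn3 and Tspan8 of the latter list were at 0 throughout, and another gene covers their whole span in the annotation. Of the 9 genes of that list that were tested, 6 were called higher in AP than in basal libraries, 1 lower and 2 not. All 9 were called lower in HSL than in AP. Lcn2 weighs heavily in its sums (means of 2993 CPM in AP and 1804 in basal), and Itgb3 had its highest mean in basal libraries (97.6 CPM, beside 44.7 in AP). Endothelial, leukocyte and adipocyte markers summed to at most 314, 1133 and 305 CPM in any library. The libraries are bulk samples, in which fewer cells of a type and less RNA per cell cannot be told apart.

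The receptor transcripts Esr1 and Pgr were highest in HSL, intermediate in AP and lowest in basal libraries. Esr1 (ENSMUSG00000019768, GRCm38 chromosome 10, 4611593 to 5005614, plus strand) had a lowest, median and highest level of 13, 35.7 and 41.8 CPM among basal, 45.8, 75.1 and 121 among AP and 267, 307 and 391 among HSL libraries. No Esr1 value of one population fell within the range of another. Esr1 was 4.1-fold higher in HSL than in AP libraries (2.03 ± 0.27, adjusted p = 1.16e-05 by edgeR) and 9.92-fold higher than in basal libraries (3.31 ± 0.28, adjusted p = 1.56e-08). The step from basal to AP was 2.42-fold (1.28 ± 0.26, adjusted p = 0.000597).

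Pgr (ENSMUSG00000031870, chromosome 9, 8899833 to 8968611, plus strand) had a lowest, median and highest level of 20.3, 34.1 and 39.3 CPM among basal, 15.5, 63.4 and 132 among AP and 97.3, 415 and 532 among HSL libraries. The lowest value in every population was that of sample 1, and its HSL level of 97.3 CPM lay inside the AP range. In each of the 6 sample numbers the HSL library was nonetheless above its AP partner. Pgr was 5.05-fold higher in HSL than in AP (2.34 ± 0.43, adjusted p = 0.000304 by edgeR) and 11.8-fold higher than in basal libraries (3.56 ± 0.45, adjusted p = 2.29e-06). It was 2.34-fold higher in AP than in basal libraries (1.23 ± 0.42, adjusted p = 0.0223), in 5 of 6 sample numbers. That last call was lost without sample 2 (1.05, adjusted p = 0.0932), without sample 3 (1.04, 0.0828) or without sample 5 (1.26, 0.0564), and with limma-voom (0.97, 0.113).

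Foxa1, the pioneer factor gene, rose in both steps from basal to AP and from AP to HSL libraries. Foxa1 (ENSMUSG00000035451, chromosome 12, 57540628 to 57546916, minus strand) stood at a lowest, median and highest level of 11.1, 17.1 and 23.8 CPM among basal, 64.6, 108 and 181 among AP and 394, 568 and 635 among HSL libraries. The 3 populations did not overlap. It was 6.37-fold higher in AP than in basal libraries (2.67 ± 0.24, adjusted p = 6.69e-08 by edgeR) and 4.86-fold higher in HSL than in AP (2.28 ± 0.24, adjusted p = 1.22e-06). Between basal and HSL libraries the difference was 30.9-fold (4.95 ± 0.27, adjusted p = 8.16e-11).

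Gata3, the other lineage factor, was abundant in all 3 populations and differed less. Gata3 (ENSMUSG00000015619, chromosome 2, 9857078 to 9890034, minus strand) had a lowest, median and highest level of 92.6, 184 and 209 CPM among basal, 130, 203 and 311 among AP and 280, 388 and 611 among HSL libraries. Its AP range overlapped both others, while HSL and basal libraries did not overlap. The level was 1.95-fold higher in HSL than in AP (0.96 ± 0.22, adjusted p = 0.002 by edgeR) and 2.42-fold higher than in basal libraries (1.27 ± 0.22, adjusted p = 8.21e-05). AP and basal libraries did not differ beyond their spread (0.31 ± 0.22, adjusted p = 0.271), although the model with sample number as a block called that difference (0.30, adjusted p = 0.0295). Other annotated genes cover 30% of the Gata3 span, so its level is less certain than that of members without overlap.

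Cited1, the coactivator gene, followed the order of Foxa1 with a wider spread between samples. Cited1 (ENSMUSG00000051159, chromosome X, 102247381 to 102252181, minus strand) had a lowest, median and highest level of 3.66, 10.1 and 26.1 CPM among basal, 35, 62 and 157 among AP and 149, 333 and 643 among HSL libraries. Only AP and HSL libraries overlapped, through the AP library of sample 5. Cited1 was 4.97-fold higher in HSL than in AP (2.31 ± 0.48, adjusted p = 0.000828 by edgeR) and 29.4-fold higher than in basal libraries (4.88 ± 0.54, adjusted p = 3.86e-07). From basal to AP it rose 5.9-fold (2.56 ± 0.48, adjusted p = 0.000273).

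Greb1, the oestrogen target and cofactor, was higher in HSL than in AP like the receptor genes, but unlike them was not called higher than in basal libraries in either. Greb1 (ENSMUSG00000036523, chromosome 12, 16670615 to 16800886, minus strand) was low, with a lowest, median and highest level of 1.08, 6.07 and 11.3 CPM among basal, 0.863, 0.998 and 5.42 among AP and 2.82, 6.47 and 15.9 among HSL libraries. The ranges of all 3 populations overlapped. HSL and basal libraries did not differ beyond their spread (0.42 ± 0.62, adjusted p = 0.581 by edgeR), with HSL above basal in 4 of 6 sample numbers. Against AP libraries Greb1 was 3.87-fold higher in HSL (1.95 ± 0.64, adjusted p = 0.0208), in all 6 sample numbers, and this call was lost without sample 4 (1.52, 0.115) or sample 6 (1.89, 0.0591). AP lay below basal in all 6 sample numbers, at -1.53 ± 0.63, which was not called (adjusted p = 0.0567). It was called with sample number as a block (-1.60, adjusted p = 0.00119), by DESeq2 (-1.55, 0.0231) and without sample 1 (-1.59, 0.0371) or sample 2 (-1.81, 0.0371). Overlapping genes cover 9.88% of the Greb1 span.

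Tbx3 was higher in HSL than in both other populations, which did not differ beyond their spread. Tbx3 (ENSMUSG00000018604, chromosome 5, 119670669 to 119684724, plus strand) had a lowest, median and highest level of 73.9, 109 and 135 CPM among basal, 51.4, 94.7 and 134 among AP and 281, 343 and 389 among HSL libraries. Every HSL value lay above every AP and basal value. Tbx3 was 3.75-fold higher in HSL than in AP (1.91 ± 0.21, adjusted p = 1.53e-06 by edgeR) and 3.31-fold higher than in basal libraries (1.73 ± 0.20, adjusted p = 9.65e-07). AP and basal libraries did not differ beyond their spread (-0.18 ± 0.20, adjusted p = 0.495), though AP lay below basal in 6 of 6 sample numbers. The antisense gene Tbx3os1 covers 4.96% of the span, and the library kit does not mark strand, so reads of the pair there cannot be told apart.

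Tbx2, the close relative of Tbx3, was highest in basal and lowest in HSL libraries. Tbx2 (ENSMUSG00000000093, chromosome 11, 85832551 to 85841948, plus strand) had a lowest, median and highest level of 21.8, 27.2 and 32.1 CPM among basal, 0.408, 1.38 and 1.94 among AP and 0, 0.285 and 0.988 among HSL libraries. The HSL library of sample 4 had 0 Tbx2 counts of 52403133, which allows a level of up to 0.0661 CPM (3 counts, counting error only). Tbx2 was 20.4-fold lower in AP than in basal libraries (-4.35 ± 0.57, adjusted p = 5.09e-06 by edgeR) and 73.8-fold lower in HSL than in basal (-6.21 ± 0.63, adjusted p = 1.46e-07), with no overlap in either case. HSL lay 3.62-fold below AP (-1.86 ± 0.55, adjusted p = 0.0112), in 6 of 6 sample numbers, with overlapping ranges. The call was lost without sample 3 (-1.68, 0.052) or sample 5 (-1.66, 0.0606), and without sample 1 the difference was -2.64. Fibroblast markers, 12 genes of which none was at 0 in all libraries of a population, summed to 1181 to 2171 CPM among basal, 696 to 1788 among AP and 131 to 337 among HSL libraries. Taken singly, 6 of the 12 were called higher in AP than in basal libraries and 3 were called lower (median 0.88). Between AP and HSL, 1 was higher in HSL and 11 were lower. Their part in the Tbx2 levels was not tested.

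**Figure D1:**
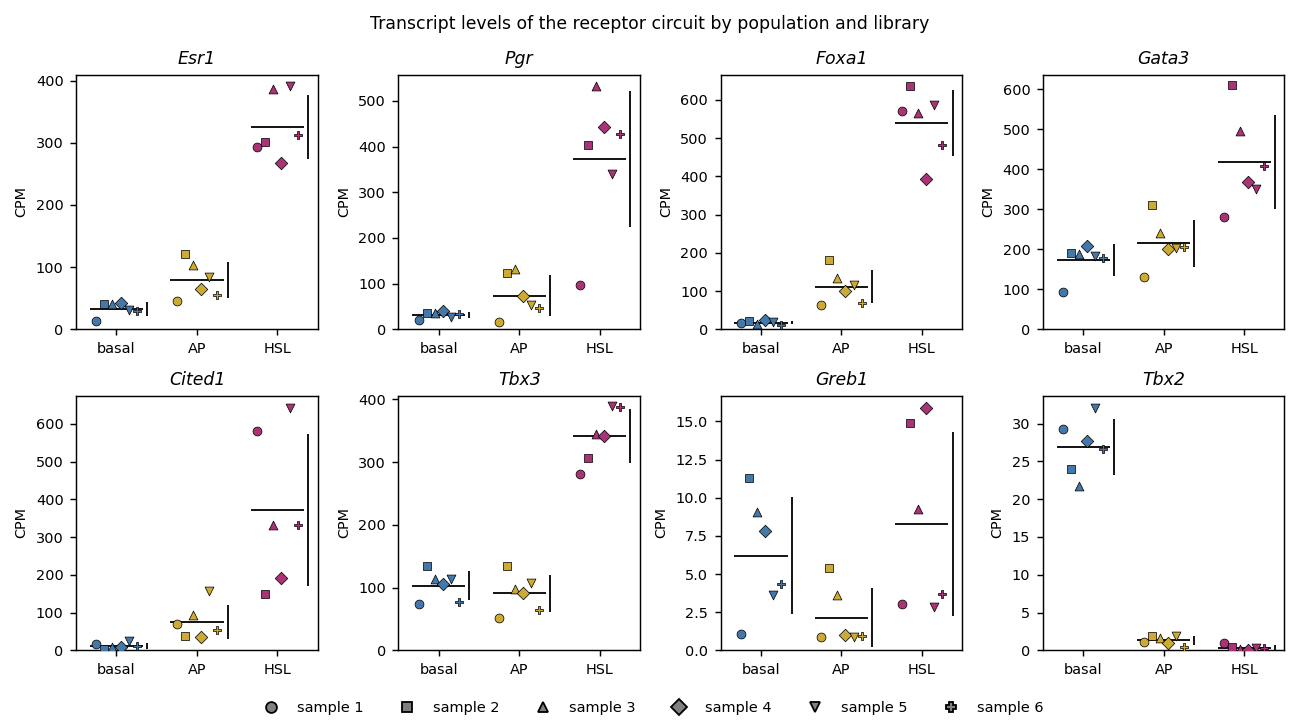
TMM-scaled CPM of the 8 genes (y axis, linear, a separate scale for each gene) in basal, AP and HSL libraries, with 1 marker per library shaped by sample number, a horizontal bar at the mean and a vertical bar for ± 1 SD (n = 6). Esr1, Foxa1 and Tbx3 in HSL lie above every other library, Greb1 overlaps in all 3 populations, and Tbx2 is high in basal libraries only, at 21.8 to 32.1 CPM.

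Counted over the members, HSL against AP gave 7 called higher, 1 called lower and 0 not called, where 39.9% of all genes tested were called (19.8% higher and 20.1% lower). All 7 were higher in 6 of 6 sample numbers. The members' median log2 fold change was 1.99, beside -0.01 over all genes. Libraries of HSL and AP did not overlap for 3 members, Esr1, Foxa1 and Tbx3, and for 20.6% of all genes (9.56% higher in HSL and 11% lower). Scaling by total counts in place of TMM moved the median of all genes to -0.18 and the share of calls that were higher from 49.6 to 35.6%, and no member changed direction. Of these calls, those of Foxa1 and Tbx3 held in samples 1 to 3 alone (2.16, adjusted p = 0.0121, and 1.65, 0.027), and the other 6 kept their direction without a call (adjusted p from 0.0562 for Cited1 to 0.398 for Greb1). Samples 1 to 3 and samples 4 to 6 form 2 runs of library identifiers. Over all genes, samples 1 to 3 alone gave 443 called higher and 1048 lower, and samples 4 to 6 alone 3383 and 3707. In samples 4 to 6 alone all 8 members were called. By fold change the 7 higher ones ran from Gata3 (0.86, adjusted p = 9.42e-05 by edgeR) to Greb1 (2.93, 0.00629). Tbx2 was lower there (-2.72) and had the largest adjusted p of the 8 (0.0235).

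Against basal libraries, HSL gave 6 members called higher, 1 lower and 1 not called, beside 58.4% of all genes called (27.8% higher and 30.6% lower). The 7 members called also showed no overlap between HSL and basal libraries, a pattern found in 36.9% of all genes. The median was 2.52, beside -0.06 over all genes. In the comparison of AP with basal libraries, which shares its libraries with the other comparisons, 4 members were called higher (Esr1, Pgr, Foxa1 and Cited1), 1 lower (Tbx2) and 3 not, beside 44.7% of all genes called (21.5% higher and 23.1% lower). Esr1, Foxa1, Cited1 and Tbx2 did not overlap there, as was the case for 25.9% of all genes. The AP to basal median was 0.77, beside -0.00.

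**Figure D2:**
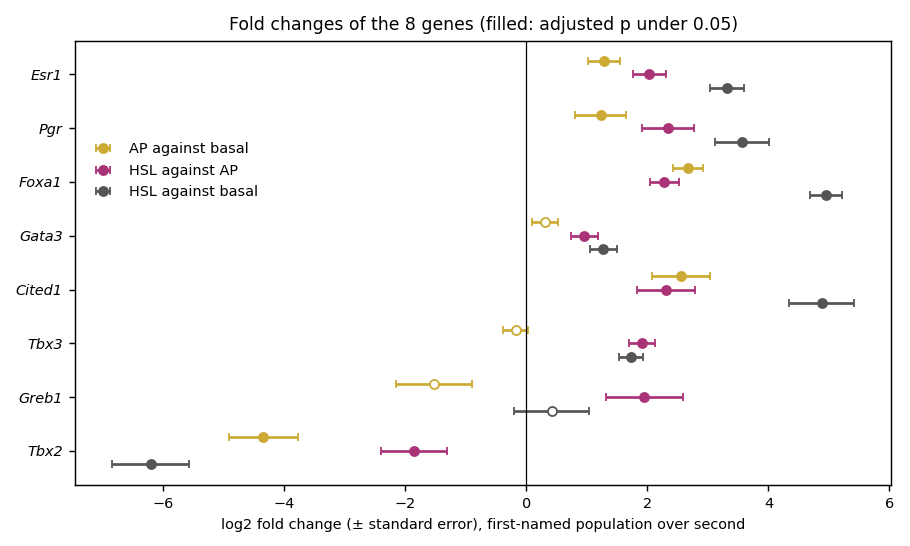
Log2 fold changes of the 8 genes from edgeR, with ± 1 standard error, for AP against basal, HSL against AP and HSL against basal libraries (above 0, more in the population named first; filled where the adjusted p is under 0.05). The open points are Gata3, Tbx3 and Greb1 in AP against basal and Greb1 in HSL against basal, and Tbx2 is the one gene with all 3 values below 0.

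The log2 fold change from AP to HSL was compared with that from basal to AP in the same model, as the first minus the second with their signs, so that a positive value need not mean a larger step. It was called for 2 members, beside 31.8% of all genes (15.6% higher and 16.3% lower). Tbx3 had the firmer difference, at 2.08 ± 0.36 (adjusted p = 0.000202 by edgeR), its log2 fold changes being 1.91 from AP to HSL and -0.18 from basal to AP. Greb1, whose steps had opposite signs (1.95 and -1.53), had 3.48 ± 1.16 (adjusted p = 0.0287), and lost the call without sample 3, 4, 5 or 6 (adjusted p between 0.0578 and 0.124). The steps of Foxa1 (-0.39 ± 0.40, adjusted p = 0.494) and Cited1 (-0.25 ± 0.78, 0.85) did not differ beyond their spread. Esr1 (0.76 ± 0.45, 0.224), Pgr (1.11 ± 0.73, 0.269), Gata3 (0.65 ± 0.39, 0.216) and Tbx2 (2.49 ± 0.94, 0.0506) were not called either. With sample number as a block the count was 5 in place of 2, through Pgr (1.48, adjusted p = 0.0172), Gata3 (0.67, 0.0102) and Tbx2 (2.44, 0.0387), whose step from AP to HSL was the smaller one. Calls rose over all genes as well, to 3534 higher and 3522 lower with the block from 2562 and 2679.

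Ratios of members within a library do not depend on how libraries are scaled, and 6 ratios were compared in each pair of populations by a two-sided exact permutation test (6 against 6 libraries, smallest possible p 0.00216, adjusted over 18 tests). The difference passed in 10 of the 18. Log2 Pgr/Esr1 was 0.04 ± 0.86 for HSL, -0.33 ± 0.70 for AP and 0.02 ± 0.34 for basal libraries (mean ± SD, n = 6), and no pair differed beyond its spread (adjusted exact p between 0.465 and 0.957). Sample 1 set much of that spread, with -1.59 in HSL and -1.56 in AP where the other samples ran from -0.20 to 0.73 and from -0.66 to 0.36. Without it the HSL to basal difference was 0.48 (adjusted exact p = 0.0357), against 0.03 with it.

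Both Greb1 ratios had a higher mean in basal than in luminal libraries. The log2 ratio Greb1/Esr1 averaged -2.64 ± 0.62 in basal, -5.64 ± 1.25 in HSL and -5.53 ± 0.76 in AP libraries. Both luminal populations were lower than basal in 6 of 6 sample numbers (adjusted exact p = 0.00433 for each), while HSL and AP did not differ beyond their spread (-0.11, 0.901). Greb1/Pgr was lower by the same order in HSL (-3.03, adjusted exact p = 0.00433) and in AP (-2.55, 0.00779) than in basal libraries. For AP this held in 5 of 6 sample numbers, sample 1 being the exception (-4.10 in AP and -4.19 in basal). Relative to Esr1, basal libraries thus held the most Greb1 of the 3 populations. Foxa1/Gata3 rose in both steps, by 2.31 from basal to AP and by 1.39 from AP to HSL (adjusted exact p = 0.00433 for each). Tbx2/Tbx3 moved the other way, with differences of -4.24 from basal to AP and -4.14 from AP to HSL (0.00433 for each). Cited1/Esr1 was higher in HSL than in basal libraries in 6 of 6 sample numbers (1.53, adjusted exact p = 0.0673), a difference that passed without sample 1 (1.71, 0.0357). Paired by sample number, an exact sign-flip test cannot go below p = 0.0312 with 6 pairs, and 0 of the 18 passed (adjusted exact p = 0.0511 for 9 of the 10 above and 0.0865 for Greb1/Pgr in AP against basal).

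Levels can be compared between genes only per length. Per kilobase of annotated exon, HSL libraries held Cited1 at 212 ± 115 CPM, Foxa1 at 162 ± 25.9, Gata3 at 105 ± 29.7, Tbx3 at 51.6 ± 6.51, Pgr at 43.7 ± 17.4, Esr1 at 23.8 ± 3.76, Greb1 at 0.863 ± 0.629 and Tbx2 at 0.097 ± 0.0944 (mean ± SD, n = 6). Neighbours within about 1 SD in that order were Cited1 with Foxa1 and Tbx3 with Pgr. Both receptor genes ranked below Foxa1, Gata3, Cited1 and Tbx3. In basal libraries the order was led by Gata3 (43.6 ± 10.3) and Tbx3 (15.6 ± 3.53), followed by Tbx2 (7.43 ± 1.02) and Cited1 (7.21 ± 4.47), with Esr1 at 2.4 ± 0.814. AP libraries were led by Gata3 (54 ± 14.9), Cited1 (42.7 ± 26.1) and Foxa1 (33.3 ± 13.1), with overlapping spreads. By the gene widths in the files, which mostly include introns, Foxa1 ranked first in HSL (98.1) ahead of Cited1 (77.5), and Esr1 stood at 0.826, with a width of 393626 bases.

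Relative to HSL, 5 members lay in AP libraries at shares close to those of other hormone-sensing markers. The AP library held Esr1 at 15.6 to 40.1% of the HSL level of the same sample number, Pgr at 10.8 to 30.6%, Foxa1 at 11.3 to 28.5%, Cited1 at 12.2 to 28.4% and Tbx3 at 16.7 to 43.7%. The median of the 12 hormone-sensing markers, which exclude the members, was 10.8, 35.4, 23.6, 17, 20.7 and 12.5% in samples 1 to 6. For Esr1, Pgr, Foxa1 and Tbx3, as for the marker median, the highest share was in sample 2 and the lowest in sample 1 or 6. Gata3 stayed apart at 46.6 to 57.5%. Of the markers, Krt8 and Krt18 had 40.7 to 72.8% and 41 to 72.6%, and Ptgs1 went the other way (55.4 to 534%). Basal libraries held the marker median at 2.95 to 5.49% of HSL, Foxa1 at 2.29 to 6.02%, Esr1 at 4.42 to 15.7%, Gata3 at 31.3 to 56.8% and Tbx3 at 20 to 43.9%. The part of hormone-sensing cells within the AP and basal gates in these levels was not tested.

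**Figure D3:**
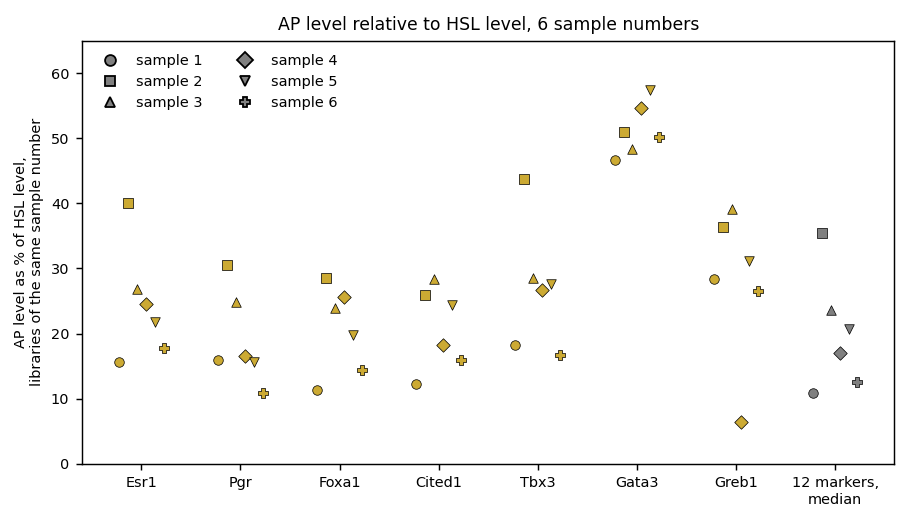
AP level as a percentage of the HSL level of the same sample number (y axis) for 7 of the 8 genes and, in grey, for the median of 12 hormone-sensing markers, with 1 marker per sample number. Gata3 lies at 46.6 to 57.5%, above the marker median of 10.8 to 35.4%, and Greb1 ranges from 6.46 to 39.2%; Tbx2 is left out because it was higher in AP (116 to 1150%).

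The members also differed between sample numbers, in more than one pattern. With population held in the model, 4 of the 8 differed among the 6 sample numbers (25.4% of all genes), and 2 of these, Cited1 and Greb1, did so without sample 1 (10.3%); this test was chosen after the values were seen. Cited1 had the smallest p of the 8 (adjusted p = 0.000488 by edgeR, 0.00194 without sample 1). It was above its population mean in samples 1 and 5 and below it in samples 2 and 4, in all 3 populations. In sample 5 the deviations on the log2 scale were 1.29 for basal, 1.27 for AP and 0.98 for HSL, and in sample 2 they were -1.53, -0.75 and -1.12.

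Greb1 varied along another axis (adjusted p = 0.00398 by edgeR, 0.0227 without sample 1). It was above its population mean in samples 2 and 3 and below it in samples 1, 5 and 6 in each population, with sample 2 at 1.75 in AP and 1.21 in HSL. Pgr (adjusted p = 0.0143) was marked by sample 1, the lowest in every population, which deviated by -0.61 in basal, -1.95 in AP and -1.77 in HSL. Gata3 (0.00261) was lowest in sample 1 in every population, at -0.86, -0.67 and -0.54. Without sample 1 neither was called (0.144 for Pgr and 0.0916 for Gata3). Esr1 (0.0886), Foxa1 (0.152), Tbx3 (0.0624) and Tbx2 (0.61) were not called with all 6.

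**Figure D4:**
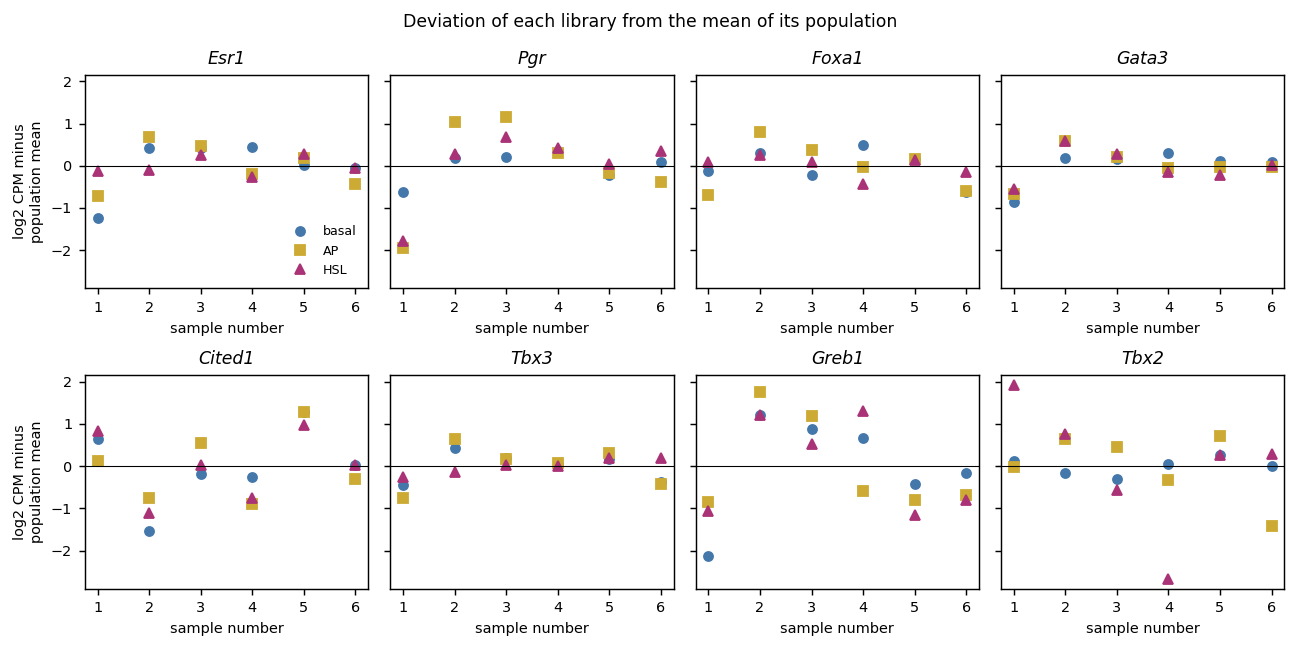
Log2 CPM of each library minus the mean of its population (y axis) by sample number (x axis) for the 8 genes, with circles for basal, squares for AP and triangles for HSL. Cited1 lies above 0 in samples 1 and 5 and below it in samples 2 and 4 in all 3 populations. Pgr in sample 1 lies at -0.61 in basal, -1.95 in AP and -1.77 in HSL.

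The genes most like each member over the 18 libraries were named by the mean absolute difference of log2 CPM after each gene's own mean was subtracted. Esr1 was nearest to Ncmap (0.20), Capsl (0.25) and Ccdc92 (0.26), and Pgr to Slc7a2 (0.16), Atp13a3 (0.25) and Fam43a (0.30). Among members, Gata3 and Tbx3 were nearest to each other, at 0.44, and Esr1 and Pgr were nearest to each other, at 0.47. Foxa1 was nearest to Arg2 (0.24), Ffar4 (0.26) and 9530014B07Rik (0.27), Gata3 to Zfyve27 (0.18), Gm20056 (0.18) and Sytl1 (0.19), and Tbx3 to Agtrap (0.21), Rmnd5a (0.25) and Aldh3a2 (0.26). The low or variable members had no neighbour as near. For Cited1 the nearest were Dnaic1 (0.41), Nrg4 (0.51) and Col8a1 (0.55), and for Greb1 they were 1700016P03Rik (0.55, with 36.4% of its span overlapped), Nuak1 (0.55) and Man1a (0.57). Tbx2 was nearest to Mfap2 (0.51), Pla2r1 (0.52) and Dpysl2 (0.54), and its nearest member was Greb1 at 2.63. Slc7a2 repeated the Pgr order with mean levels of 102 CPM (basal), 201 CPM (AP) and 1164 CPM (HSL). Man1a, like Greb1, was lowest in AP libraries (447, 93.9 and 350 CPM in that order).

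Other genes of the pathway were counted by list in HSL against AP. Over the 5 lists 16 genes were called higher and 18 lower, where 19.8% of all genes were called higher and 20.1% lower. With sample number as a block the lists had 26 and 25, and all genes 4209 and 4165 in place of 3256 and 3315. Of 22 ovarian hormone targets 19 passed the filter on low counts, and 8 were called higher and 4 lower (median 0.06, beside 1.99 for the members). Wnt4, a progesterone-induced ligand, was at 351 ± 76.1 CPM in HSL and 63.7 ± 29.1 in AP libraries (2.46 ± 0.24, adjusted p = 6.03e-07 by edgeR). Rab31, a vesicle GTPase induced by oestrogen in breast cancer cells, was 3.67-fold higher (1.88 ± 0.14, adjusted p = 8.32e-08). Other targets went the other way. Igfbp5, a binding protein for insulin-like growth factors, fell from 4175 ± 1672 CPM in AP to 152 ± 73.2 in HSL (-4.78 ± 0.40, adjusted p = 1.78e-07), and Elf5, the alveolar factor, from 190 ± 24.8 to 23.9 ± 7.44 (-2.99 ± 0.24, adjusted p = 1.46e-07). Ccnd1, the G1 cyclin, was not called (-1.11 ± 0.47, 0.0713), nor was Cxcl12, a chemokine (-0.57 ± 0.27, 0.105). Wnt4 and Elf5 also stand in the marker lists.

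Coregulators and chaperones of the receptors are set beside the 39.9% of all genes called in HSL against AP. Of 19 coregulators 1 was called higher and 2 lower between HSL and AP, and 16 were not called (median -0.01). The coactivators Ncoa1 (-1.04 ± 0.17, adjusted p = 0.00013 by edgeR) and Ncoa3 (-0.62 ± 0.17, 0.00727) were lower and the methyltransferase gene Carm1 higher (0.67 ± 0.18, 0.00583). Nrip1, a corepressor, stood at 478 ± 79.2 CPM in HSL and 338 ± 106 in AP libraries and was not called (0.50 ± 0.25, 0.125). Of 10 chaperones of steroid receptors 1 was called higher, Ppp5c (0.59 ± 0.15, 0.0054), and 2 lower. Hsp90ab1 (0.25 ± 0.15, 0.2) and Fkbp4 (-0.08 ± 0.29, 0.858) were not called.

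Among 19 luminal transcription factors that passed the filter, of 21 listed, 4 were called higher and 9 lower in HSL than in AP. Of all genes 19.8% were called higher there and 20.1% lower. The median of these factors was -0.38, against the direction of Foxa1 and Gata3. Hey1, a Notch target, fell from 309 ± 70.4 CPM in AP to 14.3 ± 8.82 in HSL (-4.43 ± 0.39, adjusted p = 2.73e-07 by edgeR). Tfap2c, which encodes AP-2 gamma, fell from 144 ± 24.9 to 16.7 ± 9.31 (-3.11 ± 0.27, adjusted p = 2.11e-07). Cebpb (-3.23 ± 0.24, 8.32e-08, with 60.4% of its span overlapped by other genes) and Nfib (-1.81 ± 0.16, 2.87e-07) fell as well. Trps1 (-0.23 ± 0.25, 0.492) and Hes1 (0.18 ± 0.18, 0.464) were not called.

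Of 10 other steroid and membrane receptor genes 8 passed the filter. In HSL against AP 2 were called higher and 1 lower (median 0.49), where 39.9% of all genes were called. Esr2, which encodes oestrogen receptor beta, was among those that did not pass. Nr3c1, the glucocorticoid receptor gene, went opposite to Esr1 and Pgr, at 24.6 ± 6.41 CPM in HSL and 84.8 ± 12.5 in AP libraries (-1.79 ± 0.18, adjusted p = 8.76e-07 by edgeR). The orphan receptor gene Esrrb was higher in HSL (2.21 ± 0.58, 0.00551), at 30.8 ± 15.4 against 6.67 ± 6.61 CPM, as was Esrra (0.74 ± 0.28, 0.0449). Pgrmc1 (0.27 ± 0.15, 0.171) and Pgrmc2 (-0.11 ± 0.12, 0.496), membrane-associated progesterone receptor components, were not called. Against basal libraries 58.4% of all genes were called in HSL (27.8% higher and 30.6% lower). The list counts there were 11 higher and 5 lower of 19 hormone targets, 2 and 2 of 19 coregulators and 7 and 9 of 19 luminal factors. They were 2 and 4 of 10 chaperones and 4 and 3 of 8 other receptors. In AP against basal libraries 44.7% of all genes were called (21.5% higher and 23.1% lower). The lists gave 8 and 5, 1 and 0, 6 and 5, 1 and 1, and 2 and 2 in the same order. They had 13 lower in all, against 21 with sample number as a block, where all genes called lower went from 3812 to 4672.

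**Figure D5:**
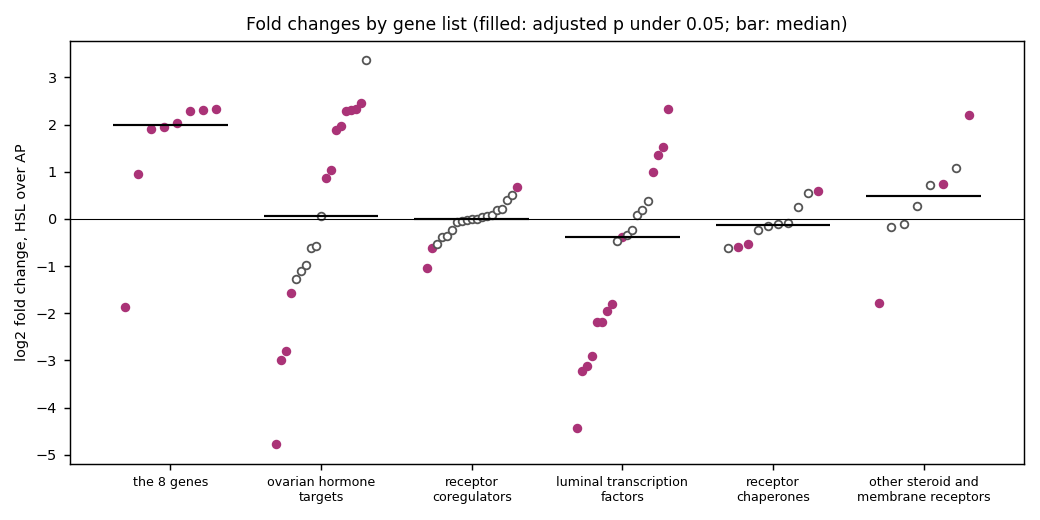
Log2 fold changes of HSL over AP (y axis) for the 8 genes and the 5 pathway lists, 1 point per gene that passed the filter, filled where the adjusted p is under 0.05, with a bar at the median. The 8 genes have a median of 1.99, and the coregulators lie around their median of -0.01 with 3 filled points.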

How the data were processed

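Per the file headers, the authors deposited gene counts (whole numbers, 52636 identifiers) for each of the 18 libraries. Per the labels' protocols, Smart-Seq v4 chemistry was applied to 2 ng of RNA, and Nextera XT, a kit without strand information, to 150 pg of the resulting cDNA. The build named in the submitters' processing notes is GRCm38. Aligner and counter are not named in the labels or headers. Symbols and coordinates come from GENCODE M21, which held 52489 identifiers. The other 147 (0.00303 to 0.00677% of counts) were left out. RPKM values, deposited by the authors beside the counts per the file headers, rest on gene widths equal to the genomic span for 85.6% of identifiers and were not used.

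Genes were kept by filterByExpr (minimum count 10), scaled with TMM (factors 0.867 to 1.17) and fitted with edgeR 4.0.16 in R 4.3.3, with 1 mean per population, a robust quasi-likelihood F test and p-values adjusted by Benjamini-Hochberg over 16471 genes. The fit was tested on simulated counts. Ratios used log2 CPM with a prior count of 2. Deviations of libraries of the same sample number were positively correlated (r from 0.127 to 0.63 across genes, 18 pairs). Pairs of different numbers were not set beside them, so the strength of the pairing is not settled. Blocked values stand beside the member and ratio results they change and beside some summed list counts. Single list genes and the counts of each list come from the model without the block. Alternatives were sample number as a block, DESeq2 1.42.0, limma-voom 3.58.1, DESeq2 size factors, total counts, 2 other count filters, 2 populations alone, and libraries left out. Named are all 8 members; of each pathway list up to 4 called genes with the smallest adjusted p and the 2 most abundant not called; and the 3 genes nearest to each member. Some genes within this rule are left out of the text. Members and lists were chosen with earlier results of these data known. Counting error and sample spread limit the precision of low genes such as Greb1 and Tbx2.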

Additional observations from a re-analysis of the deposited data

Results flagged for a closer look

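Each group of 6 libraries was searched for a highest or lowest value set far from the rest, over the levels of the 8 genes and the 6 ratios in 3 populations (42 groups), where about 1 in 20 groups is expected by chance. The Gata3 level of the basal library of sample 1 was 92.6 CPM, and the other 5 basal libraries ran from 178 to 209 CPM, so that its gap to the nearest was 0.737 of the range. The log2 ratio of Foxa1 to Gata3 in the AP library of sample 6 was -1.56, and the other 5 AP libraries ran from -1.01 to -0.78 (0.706 of the range). Of both genes Foxa1 was the one below its AP mean there, at -0.59 on the log2 scale, beside -0.02 for Gata3.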

How the results depend on the processing

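Of 504 alternative values for the 8 genes 467 kept their direction and side of the threshold, 22 lost the call, 15 gained it and 0 changed sign. Of 144 for the ratios 126 kept both, 10 lost and 2 gained the call and 6 changed sign, each with an adjusted exact p of 0.873 or more. Those came from leaving out 1 replicate: Pgr/Esr1 in HSL against basal ran from -0.13 to 0.48, Pgr/Esr1 in AP against basal from -0.52 to 0.03, and Greb1/Esr1 in HSL against AP from -0.50 to 0.05, the last value of each without replicate 1.

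With the replicate block, members called lower in AP against basal went from 1 to 2, members called in the difference between steps to 5 and ratio tests passed to 0, pathway genes higher in HSL against AP to 26 from 16 and those lower in AP against basal to 21 from 13 (the block also called Gata3 higher in AP against basal, 5 members in place of 4). It changed no other call of a member. Over all genes the block gave 4209 called higher and 4165 lower in HSL against AP, from 3256 and 3315. In AP against basal it gave 4400 and 4672, from 3544 and 3812. For the difference between steps it gave 3534 and 3522, from 2562 and 2679. DESeq2, like the block, gave 2 members lower in AP against basal, through Greb1.

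Replicates 1 to 3 alone, with fewer libraries, gave 2 members higher and 0 lower in HSL against AP (443 and 1048 genes, 4 and 10 pathway genes), 2531 and 3143 genes and 15 and 15 pathway genes in HSL against basal, and 2 members higher, 1709 and 2009 genes and 6 pathway genes lower in AP against basal. For the difference between steps they gave 0 members and 660 and 962 genes. Replicates 4 to 6 alone gave 2 members, 20 pathway genes and 3916 of all genes lower in AP against basal. For the difference between steps they gave 5 members and 2697 and 3145 genes.

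Leaving out 1 replicate in turn gave these lowest and highest counts. In HSL against AP they were 6 to 7 members higher, 0 to 1 lower, 2313 to 3836 genes higher, 2751 to 4062 lower, and 13 to 21 and 15 to 25 pathway genes. In HSL against basal they were 6 and 1 members, 3938 to 4983 and 4507 to 5668 genes, and 20 to 28 and 21 to 27 pathway genes. In AP against basal they were 3 to 4 and 1 to 2 members, 2955 to 4127 and 3207 to 4225 genes, and 15 to 17 and 10 to 19 pathway genes. The difference between steps had 1 to 2 members, 1828 to 2964 and 2110 to 3315 genes. Of the ratio tests 10 to 12 passed. The test among sample numbers gave 2 members and 1696 genes without replicate 1. The cause of these shifts was not tested. Low counts limit Tbx2 in HSL and Greb1 in AP libraries.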
